A study of Mus musculus with 5 samples.

Results

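The enrichment of macroH2A1.2 was examined at 40 genes of lipid storage, lipogenesis and adipokine secretion, out of 21755 protein-coding genes annotated in the mouse. The 40 genes were given as a list, and each was taken as a window of the gene body with 10 kb on each side. Every enriched region called in a sample that overlapped such a window by at least 1 bp was kept. The windows did not overlap each other, spanned 2.27 Mb in sum, and held 34 and 28 regions in the replicates 1 and 2 of pre-adipocytes and 50 and 56 regions in those of mature adipocytes. These were drawn from 36468, 38546, 59375 and 61196 regions in the same order of samples, which is kept below wherever 4 values follow each other.

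The cells were 3T3-L1, a mouse fibroblast line that can be driven into adipocytes, and all of them carried a lentivirus for stable expression of macroH2A1.2 fused to GFP. Chromatin was cut with micrococcal nuclease and precipitated with an anti-GFP antibody in 2 samples of pre-adipocytes, taken before differentiation, and 2 of mature adipocytes, taken after it. Per the labels, differentiation began 2 days after confluence by 60 h in a cocktail of insulin at 10 µg/ml, the phosphodiesterase inhibitor IBMX at 500 µM and the glucocorticoid dexamethasone at 0.25 µM, of which insulin alone was kept afterwards. A single library made without antibody served as the control of every sample. The tagged protein came from a transgene, so the regions are those of macroH2A1.2-GFP and not of the endogenous histone. Titles decided the condition of each sample. The descriptions of the mature adipocyte libraries go against their titles, since they name undifferentiated cells, and the description of the control goes against its title by naming the anti-GFP antibody. The tables hold no RNA measurement, so the state of the cells could not be checked against adipocyte markers. They also give no share of differentiated cells for these samples. In the paper's Oil Red O staining after differentiation, 3T3-L1 cells with macroH2A1.2-GFP held less lipid than cells with GFP alone. The paper calls the replicates biological duplicates, but neither it nor the labels says that they were separate cultures. The p-values therefore measure the spread between these samples.

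The library of pre-adipocytes replicate 2 was the smallest, at 0.549 times the control library, while the other 3 ranged from 1.2 to 1.23 times. Its regions covered 5.28% of the genome, against 10.6%, 11.2% and 10.8% in pre-adipocytes replicate 1 and mature adipocytes replicates 1 and 2. The median region was 5800, 3000, 3600 and 3400 bp long, so the number of regions and their length differed between samples before any gene was considered.

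MacroH2A1.2 is a splice form of a histone variant in which an H2A-like part is joined to a large macro domain. It is laid down over broad stretches of chromatin rather than at points, and it has been linked both to silencing and to permitted transcription. Mature adipocytes import fatty acids or make them from glucose, join them to glycerol phosphate as triglyceride, coat the resulting droplet with perilipins, release fatty acids again through lipases, and secrete adipokines such as leptin and adiponectin.

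The promoters of 4 secreted-protein genes are shown because their cover differed. Those of Lep, Agt and Adipoq lay in a region in some samples but not all, and that of Retn in none. Each stretch holds 250 bases before and 50 bases after the RefSeq start of transcription on build GRCm38.p6, the assembly of mm10, and is written 5′ to 3′ on the strand of the gene. Capitals mark the C/EBP palindrome TTGCGCAA in Lep, the TATA box TATAAA in Agt, and the CCAAT box, read on both strands, in Adipoq. The Retn stretch held none of these motifs and no E-box, CACGTG.
Lep, chr6:29059971-29060270, forward strand: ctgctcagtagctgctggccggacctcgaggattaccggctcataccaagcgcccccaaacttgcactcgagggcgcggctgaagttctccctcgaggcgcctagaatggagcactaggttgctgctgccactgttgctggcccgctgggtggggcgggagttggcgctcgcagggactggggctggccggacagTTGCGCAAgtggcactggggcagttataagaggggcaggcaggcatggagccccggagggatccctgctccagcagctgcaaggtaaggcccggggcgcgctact
Agt, chr8:124569657-124569956, reverse strand: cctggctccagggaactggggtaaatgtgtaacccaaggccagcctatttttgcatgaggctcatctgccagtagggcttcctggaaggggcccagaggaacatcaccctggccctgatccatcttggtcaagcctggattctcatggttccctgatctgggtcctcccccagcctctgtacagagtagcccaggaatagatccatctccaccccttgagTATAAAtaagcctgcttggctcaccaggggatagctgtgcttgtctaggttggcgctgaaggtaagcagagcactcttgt
Adipoq, chr16:23146286-23146585, forward strand: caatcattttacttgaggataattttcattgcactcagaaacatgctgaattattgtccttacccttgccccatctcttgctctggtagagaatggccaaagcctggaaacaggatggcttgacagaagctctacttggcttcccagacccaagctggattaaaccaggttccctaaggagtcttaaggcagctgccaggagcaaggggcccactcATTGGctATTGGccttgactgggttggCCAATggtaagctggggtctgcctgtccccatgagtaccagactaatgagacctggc
Retn, chr8:3655520-3655819, forward strand: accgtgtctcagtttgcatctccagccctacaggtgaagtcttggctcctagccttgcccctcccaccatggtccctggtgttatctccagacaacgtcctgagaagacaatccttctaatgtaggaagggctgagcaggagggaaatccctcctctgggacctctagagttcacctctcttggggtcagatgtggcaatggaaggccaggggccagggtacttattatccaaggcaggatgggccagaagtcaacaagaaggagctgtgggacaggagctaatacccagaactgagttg

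All 300 bases of the Lep stretch lay in a region of pre-adipocytes replicate 1 and none lay in a region of the other 3 samples. The Agt stretch lay wholly in a region of pre-adipocytes replicate 1 and of mature adipocytes replicate 2, and the Adipoq stretch in a region of mature adipocytes replicate 2 alone. No region of any sample reached the Retn stretch. RefSeq stretches were found for 31 of the 40 genes. TTGCGCAA was present in 1 of the 31 and in 0.183% of 32851 promoter stretches of the same length, TATAAA in 3 and 13.6%, CCAAT in 10 and 37.4%, and CACGTG in 3 and 7.15%. These are matches of letters, not evidence of a bound factor.

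Regions reached 26 of the 40 genes in at least 1 sample, and 14 genes had none in any sample. The percentage was 65% for the 40 genes, 51.9% for all protein-coding genes and 52.4% for genes of like length, taken as the 200 other protein-coding genes nearest in body length to each listed gene. Counted by sample, a region was present at 18, 10, 20 and 20 of the 40 genes, that is 45%, 25%, 50% and 50%, against 33.7%, 29.3%, 40% and 40.2% of all protein-coding genes. The listed genes lay above the background in 3 samples and below it in pre-adipocytes replicate 2. Pre-adipocytes averaged 14 ± 5.66 genes (SD, n = 2) and mature adipocytes 20 ± 0 (SD, n = 2), and this difference of 6 genes gave p = 0.333 in an exact two-sided permutation test, the smallest that 2 samples against 2 allow. It was 2 genes without pre-adipocytes replicate 2, and 0 when each sample was reduced to its 36468 regions of lowest FDR, with ties ranked by higher enrichment.

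**Figure D1:**
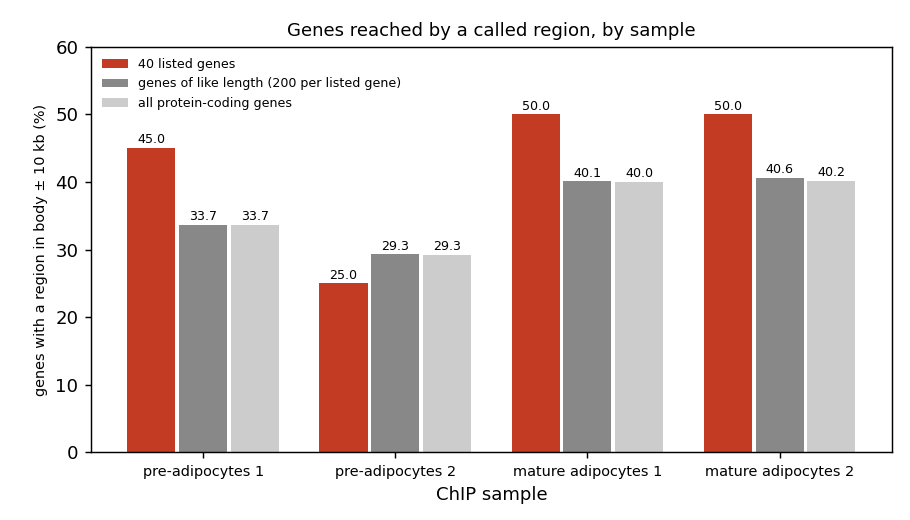
Percentage of genes with a called region in the gene body or the 10 kb on each side, by ChIP sample on the horizontal axis, for the 40 listed genes, for genes of like body length (200 per listed gene, mean share) and for all 21755 protein-coding genes. The red bars stand at 45%, 25%, 50% and 50%, above both grey bars in 3 samples and below them in pre-adipocytes replicate 2.

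Shares that required both replicates of a condition lay nearer to the background. Regions were present in all 4 samples at 7 genes (17.5%; 20.3% of all protein-coding genes), in both replicates of pre-adipocytes at 8 (20%; 23.3% of all) and in both replicates of mature adipocytes at 15 (37.5%; 33.2% of all). Cfd and Acacb alone had a region in both mature adipocyte samples with none in pre-adipocytes (5.0%; 4.73% of all). No listed gene showed the opposite pattern, which 0.896% of all protein-coding genes showed. Genes of like length gave 20%, 22.7%, 33.4%, 4.83% and 0.788% for the same 5 patterns.

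Gene bodies and starts were also counted on their own, each against its background, since a start is a single base. Within the gene body itself a region was present at 15 genes in at least 1 sample (37.5%; 30.1% of all). The annotated transcription starting site (TSS) lay in a region of at least 1 sample at 9 genes (22.5%; 11.3% of all and 11.5% of genes of like length), with 4, 0, 1 and 5 genes in the 4 samples. None of these TSSs lay in a region of both replicates of a condition. That of Agt was covered in 1 sample of each condition, and those of Lep, Rbp4, Cav1, Mgll, Adipoq, Cd36, Lpl and Fabp4 in a single sample. This holds for GENCODE gene starts, and 17 of the 31 RefSeq starts lay within 1 bp of them. The RefSeq stretch of Cd36, 52905 bp from the GENCODE start, lay wholly in regions of both mature adipocyte samples. It lay in no region of pre-adipocytes. That of Acacb, 18983 bp away, was covered in mature adipocytes replicate 1 alone. The count of 9 was 5 without mature adipocytes replicate 2 and 1 when only regions of at least 2-fold enrichment were kept. The share of all protein-coding genes was not computed under these settings. Exons made up 8.56% of the windows and 2.31%, 2.86%, 3.53% and 4.11% of the covered bases, whereas the 10 kb upstream made up 17.6% of the windows and 41.5%, 45.1%, 27.0% and 32.1% of the covered bases. The share in introns was 38.2%, 33.8%, 53.5% and 49.2% against 56.2% of the windows, higher in both mature adipocyte samples than in both pre-adipocyte samples.

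Of the 2.27 Mb, 8.82%, 3.92%, 9.13% and 11.3% was covered by regions. Pre-adipocytes averaged 6.37% ± 3.46 (SD, n = 2) and mature adipocytes 10.2% ± 1.56 (SD, n = 2), which differ by 3.86 percentage points (exact two-sided permutation test, p = 0.333). It was 1.42 points without pre-adipocytes replicate 2, 0.667 points (exact permutation test, p = 1) with equal numbers of regions and 0.56 points with regions of at least 2-fold enrichment. Averaged over genes, the 40 windows were covered to 9.44%, 4.41%, 8.64% and 11.4%, and genes of like length to 7.70%, 3.49%, 7.73% and 7.44%. On this mean the listed genes lay above genes of like length in each sample, by a margin that varied. Their median window was covered to at most 1.13%, so a few broad domains, that of Lep the widest, carried the mean. A mean without Lep and a median for genes of like length were not computed. By bases, the pooled windows were covered less than the genome (10.6%, 5.28%, 11.2% and 10.8%), except in mature adipocytes replicate 2.

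**Figure D2:**
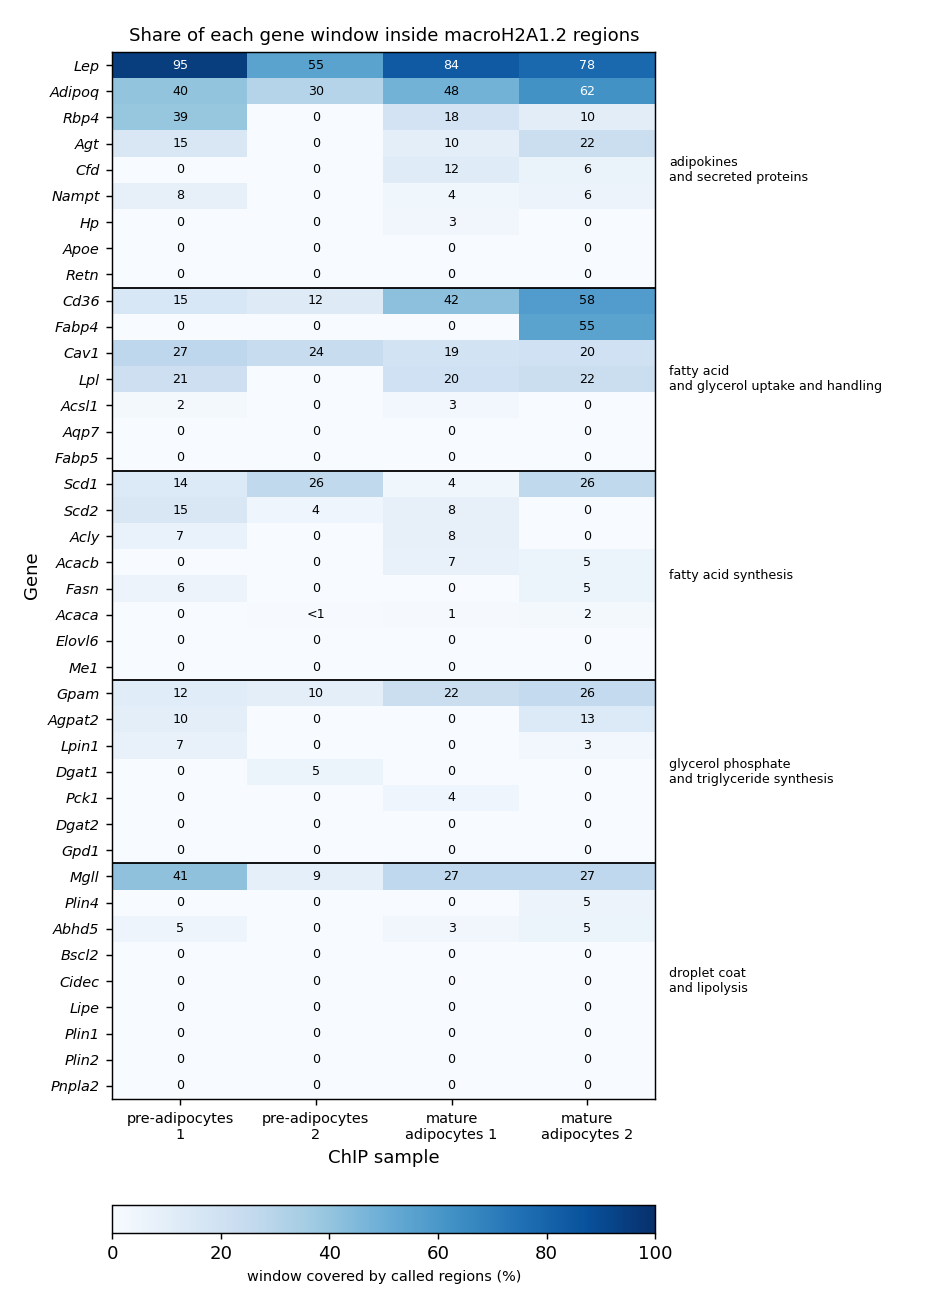
Percentage of each gene window (body and 10 kb on each side) inside called regions, for the 40 genes in rows, grouped by role, and the 4 ChIP samples in columns; darker blue is more covered and each cell prints its percentage. Lep and Adipoq are covered in every sample, and 6 of the 9 genes of the droplet coat and of lipolysis are at 0 throughout.

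Among the 9 adipokines and secreted proteins, 7 had a region in at least 1 sample and 2, Lep and Adipoq, in all 4. The shares of all protein-coding genes were 51.9% and 20.3%, which also apply to the counts of the other roles below. With 7 to 9 genes a role, no role was tested against this background or against another role. Lep encodes leptin, the hormone that reports fat mass to the brain, and lies at chr6:29060220-29073877 on the forward strand. Regions covered 94.7%, 54.9%, 83.7% and 77.8% of its window of 33.658 kb, the widest cover of the 40 genes in each sample. Summed over the regions touching it there were 1283, 373, 1126 and 1070 ChIP reads against 545, 333, 495 and 498 control reads, a library-scaled enrichment of 1.96-, 2.04-, 1.85- and 1.78-fold. The cover was lowest in the small library of pre-adipocytes replicate 2, so pre-adipocytes and mature adipocytes overlapped. Of the 200 genes nearest to Lep in body length, 0, 1, 2 and 2 were covered more. The region over the TSS in pre-adipocytes replicate 1 ran over 20.4 kb, at chr6:29050401-29070800, with 772 ChIP and 348 control reads (1.85-fold, FDR 1.49e-52). In the other 3 samples the regions stopped short of the TSS, at chr6:29051601-29057600 in pre-adipocytes replicate 2 and at chr6:29048201-29059800 and chr6:29048201-29059400 in mature adipocytes, and resumed inside the gene.

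Adipoq encodes adiponectin, a hormone of fat cells that improves insulin sensitivity, and lies at chr16:23146536-23158028 on the forward strand. Its window was covered to 40.1%, 29.8%, 47.7% and 62.3%, higher in both mature adipocyte samples than in both pre-adipocyte samples. Regions touching it held 1029, 236, 2043 and 952 ChIP reads against 555, 216, 1004 and 537 control reads. The gene body alone was covered to 36.5%, 15.7%, 60.9% and 86.1%, in the same order of conditions. The mean difference of 20 percentage points of the window turned to -5.40 points when only regions of at least 2-fold enrichment were kept. Of the 200 genes nearest in length, 4, 4, 4 and 1 were covered more. In mature adipocytes replicate 2 a region of 5.0 kb, chr16:23142401-23147400, held 208 ChIP and 115 control reads and took in the TSS (1.5-fold, FDR 3.54e-08), which lay outside every region of the other 3 samples.

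**Figure D3:**
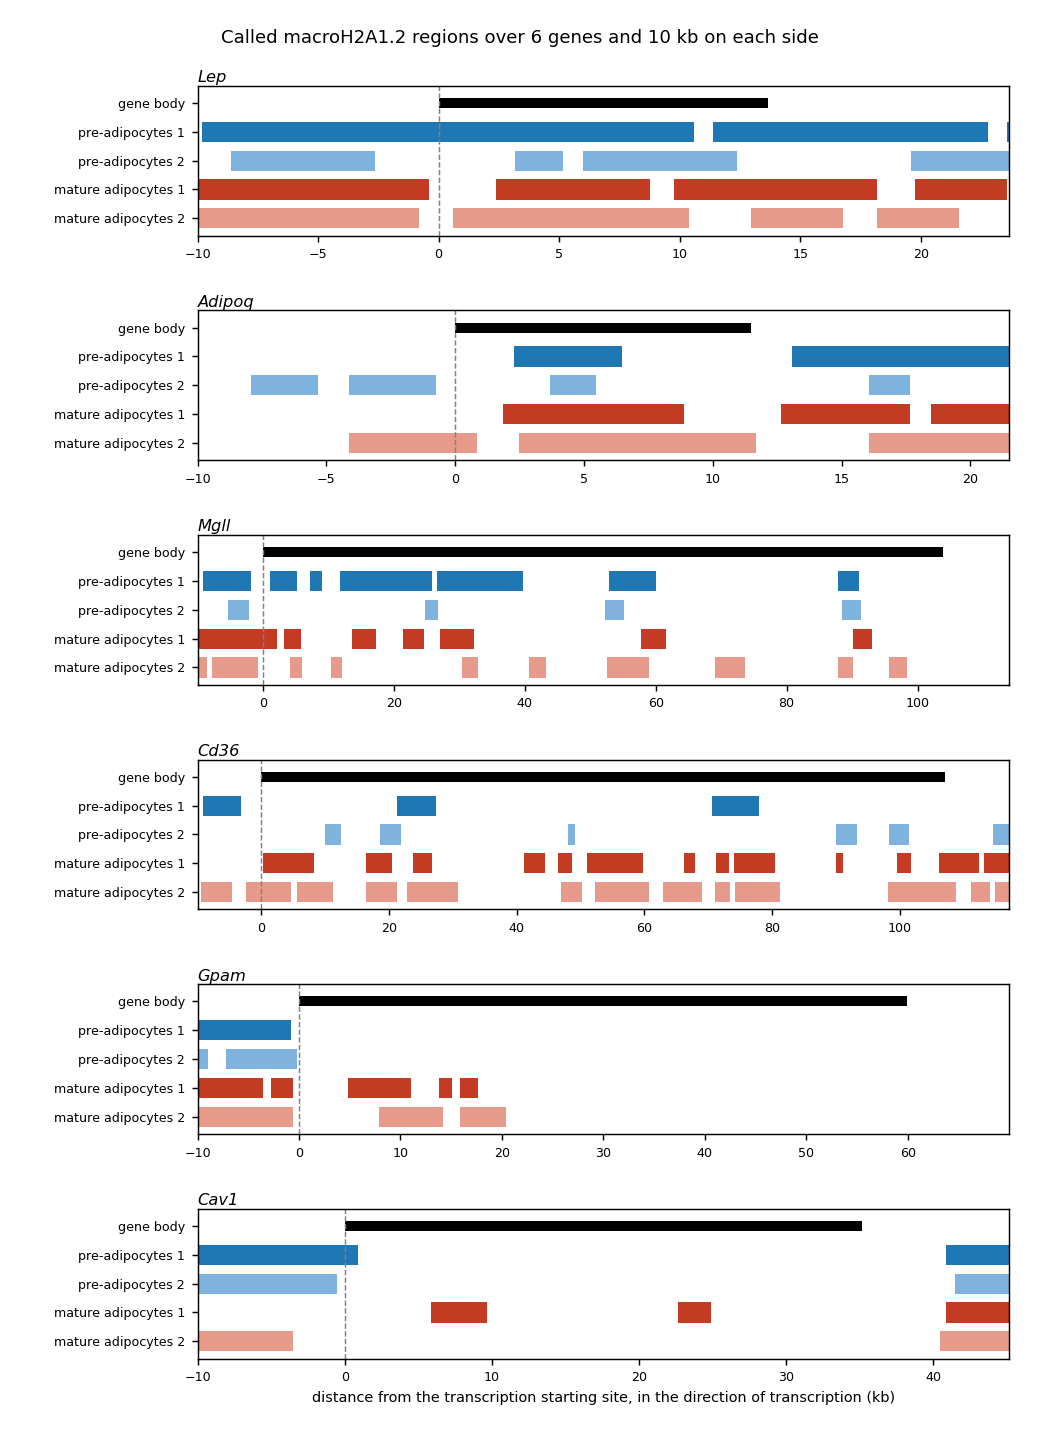
Called regions at Lep, Adipoq, Mgll, Cd36, Gpam and Cav1, with the distance from the TSS in kb in the direction of transcription on the horizontal axis and the 4 samples in rows (blue, pre-adipocytes; red, mature adipocytes); the black bar is the gene body and the dashed line the TSS, and regions are clipped at the window. Lep is covered almost throughout in pre-adipocytes replicate 1, Cd36 carries 3 and 6 regions in pre-adipocytes and 13 in each mature adipocyte sample, and the regions of Gpam lie upstream in every sample with further ones inside the gene in mature adipocytes.

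Cfd, which encodes adipsin, a protease of the complement system made by fat cells, was reached in mature adipocytes only. Its window was covered to 0%, 0%, 11.9% and 6.42%, by a region of 2.6 kb with 89 ChIP and 32 control reads in replicate 1 (2.27-fold, FDR 9.55e-12) and a region of 1.4 kb with 56 and 15 reads in replicate 2 (3.10-fold, FDR 8.57e-13). Both lay upstream of the gene, the nearer at 4.252 kb, and the larger also overlapped the neighbouring gene Elane. The nearest regions of the pre-adipocyte samples were 40345 and 53252 bp away.

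Rbp4, the carrier of retinol in blood, was covered to 39.1%, 0%, 18.1% and 10.5%. Its regions held 331 ChIP reads in pre-adipocytes replicate 1 and 188 and 111 in mature adipocytes. Its TSS lay in the region of pre-adipocytes replicate 1, and the conditions overlapped. Agt, which encodes angiotensinogen, the precursor of angiotensin, was covered to 15.1%, 0%, 9.65% and 22.3%, with 188, 0, 110 and 278 ChIP reads. Both genes lacked a region only in the small library. Nampt had a region in the same 3 samples, Hp in mature adipocytes replicate 1 alone, and Retn and Apoe in none. Retn, which encodes resistin, lay 354.369 kb from the nearest region of any sample, measured from the gene body, and Apoe 395.508 kb, the farthest of the 40 genes.

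Of the 7 genes of fatty acid and glycerol uptake and handling, 5 had a region and Cd36 and Cav1 had one in all 4 samples. Cd36 encodes a fatty acid translocase of the plasma membrane and lies at chr5:17781690-17888801 on the reverse strand. Its window of 127.112 kb was covered to 15.4%, 12.4%, 41.6% and 57.5%, with 3, 6, 13 and 13 regions. These regions held 679, 426, 2132 and 3019 ChIP reads against 448, 458, 1144 and 1569 control reads. Cover was higher in both mature adipocyte samples than in both pre-adipocyte samples, while the library-scaled enrichment inside the regions was 1.26-, 1.70-, 1.52- and 1.60-fold and overlapped between conditions. The mean difference of 35.7 percentage points was 20.1 points with equal numbers of regions and 3.62 points at 2-fold enrichment. Among the 200 genes nearest in length, 39 and 23 were covered more in pre-adipocytes and 10 and 6 in mature adipocytes.

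Cav1, which encodes the main coat protein of caveolae, the membrane pits abundant in fat cells, showed the opposite order over the whole window. It was covered to 27.4%, 23.8%, 18.6% and 20.2%, lower in both mature adipocyte samples. The regions held 1960, 523, 827 and 970 ChIP reads against 1264, 709, 492 and 590 control reads, and in pre-adipocytes replicate 1 the upstream region also overlapped the neighbouring gene Cav2. Cover of the 10 kb downstream was steady, at 4252, 3652, 4252 and 4652 bp, whereas that of the 10 kb upstream was 10000, 9466, 0 and 6466 bp. The gene body ran the other way, through a single sample, at 2.47%, 0%, 17.1% and 0%. The mean difference of -6.23 percentage points of the window was 0 at 2-fold enrichment, 7.31 points in the gene body alone, -3.08 points at an FDR of 1e-05, and -17.5 points both with equal numbers of regions and with regions common to both replicates.

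Lpl encodes lipoprotein lipase, which frees fatty acids from circulating triglyceride. Its window was covered to 21.1%, 0%, 20.3% and 22.4%, almost wholly upstream of the gene, with 517, 0, 469 and 1255 ChIP reads. Fabp4, a fatty acid carrier of the cytoplasm and a marker of fat cells, had regions in mature adipocytes replicate 2 alone. They covered 54.7% of its window and 93.0% of its body, with 435 ChIP and 243 control reads, and 1 of them overlapped the neighbouring genes Fabp9 and Gm37389. The nearest region of mature adipocytes replicate 1 was 16424 bp away, so the pattern at Fabp4 was not shared by the replicates. Acsl1 was reached in 1 sample of each condition, and Fabp5 and Aqp7 in none.

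Of the 8 genes of fatty acid synthesis 6 had a region in at least 1 sample, but regions covered 1.93%, 1.34%, 2.51% and 2.81% of their pooled windows, in which long genes such as Acaca weigh most. Averaged over the 8 genes, so that each counted alike, cover was 5.10%, 3.87%, 3.44% and 4.88%. Scd1, the desaturase that makes oleic acid, had a region in all 4 samples, and its window was covered to 13.6%, 26.3%, 3.59% and 26.3%. All of it lay outside the gene body, and the conditions overlapped. Its neighbour Scd2, another desaturase gene, was covered to 14.8%, 4.22%, 7.83% and 0%, the only gene of the 40 with a region in both pre-adipocyte samples and in 1 of mature adipocytes. Acacb, which encodes the acetyl-CoA carboxylase of mitochondria, was covered to 0%, 0%, 7.24% and 5.31%, inside the gene. Its regions held 272 and 202 ChIP reads against 148 and 75 control reads in mature adipocytes. The nearest regions of pre-adipocytes to its body were 16439 and 336734 bp away. Acaca, the carboxylase of the cytoplasm, had its highest cover at 2.26%, Fasn and Acly were reached in 1 sample of each condition, and Elovl6 and Me1 in none.

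Among the 7 genes of glycerol phosphate and triglyceride synthesis, 5 had a region and Gpam had one in all 4 samples. Gpam encodes the mitochondrial enzyme that adds the first fatty acid to glycerol phosphate and lies at chr19:55067268-55127238 on the reverse strand. Its window was covered to 11.6%, 10.1%, 22.3% and 25.6%, higher in both mature adipocyte samples. The 10 kb upstream were covered over 9238, 8038, 8638 and 9438 bp, whereas the gene body was covered to 0%, 0%, 15.3% and 18.3%. The mean difference of 13.1 percentage points of the window was 6.63 points at an FDR of 1e-05, 3.75 points with equal numbers of regions and 0.75 points at 2-fold enrichment. Agpat2 and Lpin1 had a region in 1 sample of each condition, Pck1 in mature adipocytes replicate 1, Dgat1 in pre-adipocytes replicate 2, and Dgat2 and Gpd1 in none.

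Of the 9 genes of the droplet coat and lipolysis 3 had a region in at least 1 sample, where 51.9% of all protein-coding genes had one, and whether this role differed from the others was not tested. Mgll encodes monoglyceride lipase, the last enzyme in the breakdown of triglyceride, and was the exception with a region in all 4 samples. Its window at and around chr6:88724412-88828360, forward strand, was covered to 41.1%, 9.04%, 26.9% and 26.6%, with 7, 4, 7 and 10 regions and 1640, 191, 1279 and 1305 ChIP reads against 825, 169, 560 and 497 control reads. The conditions overlapped. A region of 1.6 kb in mature adipocytes replicate 2, chr6:88734801-88736400, held 60 ChIP reads over 7 control reads, the highest enrichment at any of the 40 genes (7.11-fold, FDR 2.96e-30), and mature adipocytes replicate 1 had no region there. Abhd5, the activator of the lipase encoded by Pnpla2, had upstream regions in both mature adipocyte samples and in pre-adipocytes replicate 1, and Plin4 in mature adipocytes replicate 2, there shared with the neighbouring gene Plin5. Plin1 and Plin2, which encode coat proteins, Cidec, which promotes droplet growth, Bscl2, which encodes seipin, and the lipase genes Lipe and Pnpla2 had no region in any sample. Their distances to the nearest region were 76.697 kb for Plin1, 16.74 kb for Plin2, 23.64 kb for Cidec, 134.317 kb for Bscl2, 190.926 kb for Lipe and 74.597 kb for Pnpla2.

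The 12 genes with a region in 1 to 3 samples and not described singly above had their highest cover between 2.26% (Acaca) and 13.4% (Agpat2). The 14 genes without a region lay between 12.447 kb (Me1) and 395.508 kb (Apoe) from the nearest one.

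Cover was higher in both mature adipocyte samples than in both pre-adipocyte samples at 6 genes (Acaca, Acacb, Adipoq, Cd36, Cfd and Gpam; 15.0%), against 14.1% of all protein-coding genes, and lower at Cav1 alone (2.5%), against 3.39% of all. This count was chosen after the values of the genes were seen. With the small library of pre-adipocytes replicate 2 left out, cover in both mature adipocyte samples was above that of pre-adipocytes replicate 1 at the same 6 genes (15.6% of all) and below it at 8, Cav1, Fasn, Lep, Lpin1, Mgll, Nampt, Rbp4 and Scd2 (20%; 17.4% of all). Each of these shares was near its background.

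Whether the density of reads inside called regions differed between conditions was tested where every sample had a call. Overlapping regions of the 4 samples were merged, and 12857 of the 62927 merged regions were called in all 4. Of these, 14 reached a window of the listed genes, at Lep, Adipoq, Cd36, Cav1, Lpl, Scd1, Scd2, Gpam and Mgll. Merged regions were tested whole, so parts of them lay outside the windows. Lpl and Scd2, whose windows were reached in 3 samples, entered through calls of the remaining sample outside the window. The other genes called in fewer samples, Fabp4, Cfd and Acacb among them, were outside this test. Density was taken over each sample's own called stretches within a merged region, so the bases compared differed between samples. The test therefore does not speak to density over the whole of a merged region. By edgeR's quasi-likelihood test with Benjamini-Hochberg adjustment over the 12857 regions, 0 of the 14 passed an adjusted p of 0.05, where 0.0778% of all tested regions passed as higher in mature adipocytes and 0.00778% as higher in pre-adipocytes. At an unadjusted p under 0.05 there were 2 of 14, against 9.14% of all regions, and DESeq2 gave 0 by either measure. The estimate was higher in mature adipocytes at 7 and in pre-adipocytes at 7, with a median log2 fold change of 0.013, against -0.00011 over all regions tested.

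The smallest adjusted p belonged to the region inside Adipoq, chr16:23148401-23158200. Inside the called stretches its read density per 100 bp and library size was 1.83, 2.48, 1.68 and 1.64 on the log2 scale. This was highest in pre-adipocytes replicate 2, where it rested on 55 reads. The log2 fold change was -0.41 (SE 0.147), with an adjusted p of 0.339 by edgeR. The density inside the called stretches of Adipoq was thus not shown to differ. At Lep the merged region ran over 65000 bp, chr6:29021601-29086600, of which 61800, 39400, 48200 and 42800 bp were called. Log2 density inside these stretches was 1.63, 1.79, 1.58 and 1.59, lower in both mature adipocyte samples than in both pre-adipocyte samples. The log2 fold change was -0.13 (SE 0.0639), with an adjusted p of 0.527 by edgeR. Without pre-adipocytes replicate 2, where more regions could be tested and the lone pre-adipocyte sample was assumed to vary like the others, it was -0.20 (SE 0.0498) with an adjusted p of 0.0125. Under the other alternatives the adjusted p of the Lep region lay between 0.268 and 1.0. The remaining 12 log2 fold changes lay between -0.17 and 0.22.

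**Figure D4:**
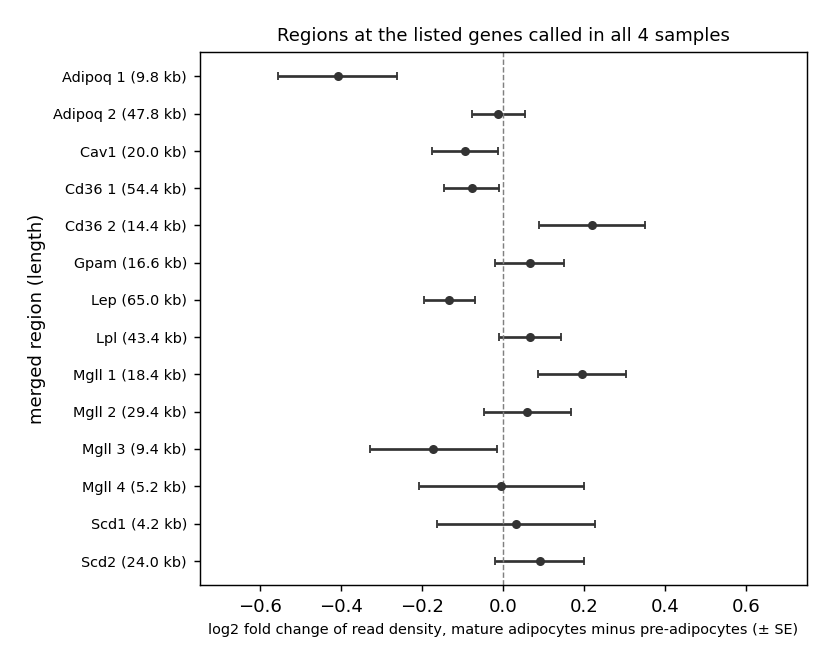
Log2 fold change of read density between mature adipocytes and pre-adipocytes (points, with bars of 1 SE, from edgeR). Density was taken inside each sample's called stretches, for the 14 merged regions called in all 4 samples at the listed genes. Regions are numbered within a gene in genomic order and their length is given. The points scatter on both sides of the dashed line at 0, and the farthest is the first Adipoq region at -0.41.

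Across all regions of the windows the median ChIP density was 1.80, 1.01, 1.92 and 1.91 (log2 reads per 100 bp), and 1.76, 1.02, 1.93 and 1.93 over all regions of the same samples. It was 0.51 higher in mature adipocytes (exact two-sided permutation test, p = 0.333), a difference that became -0.074 (p = 1) once reads were divided by library size. The median enrichment was 1.52-, 1.86-, 1.66- and 1.66-fold at the listed genes and 1.61-, 2.01-, 1.79- and 1.82-fold over all regions, slightly lower at the listed genes in each sample. Their regions had a median length of 6700, 3000, 3700 and 4400 bp, against 5800, 3000, 3600 and 3400 bp over all regions. Regions at the windows of other genes were not taken for comparison, so whether the lower enrichment is particular to the listed genes was not tested.

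The listed genes without regions lay mostly in surroundings with little cover, and the cover of surroundings was not computed for other genes. Over 1 Mb centred on each gene, with the window itself left out, the mean cover of the 4 samples had a median of 25.0% (22.2% to 36.6%) around the 7 genes with a region in all samples, 15.9% (3.34% to 31.4%) around the 19 genes with a region in 1 to 3 samples, and 1.49% (0.0563% to 19.1%) around the 14 genes with none. The last range ended at Gpd1, and 13 of the 14 genes without a region had at most 8.37% around them. The median number of other protein-coding TSSs within that megabase was 8, 13 and 20 in the same order. Over all protein-coding genes it was 13 for genes with a region in all samples, 15 for 1 to 3 samples and 18 for none, the same order as among the listed genes.

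**Figure D5:**
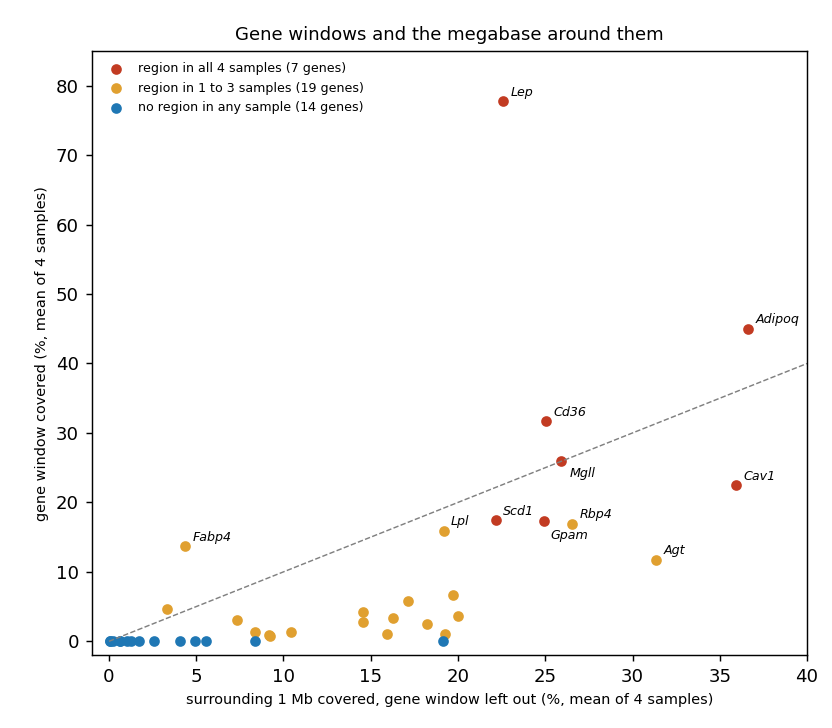
Percentage of each gene window covered (vertical axis) against the percentage of the surrounding 1 Mb covered with the window left out (horizontal axis), both as means of the 4 samples, for the 40 genes coloured by the number of samples with a region; the dashed line marks equal cover. Lep lies far above the line, with 77.8% of its window and 22.6% of its surroundings covered, Adipoq, Cd36, Fabp4 and Cfd lie above it, Mgll on it, and the other genes below.

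Lep was the gene that stood out most from its neighbourhood, with 77.8% of its window covered against 22.6% around it. Adipoq (45% and 36.6%) and Cd36 (31.7% and 25.0%) exceeded their surroundings by less, Mgll equalled them (25.9% and 25.9%), and Cav1 (22.5% and 35.9%), Gpam (17.4% and 24.9%) and Scd1 (17.5% and 22.2%) lay below. Fabp4 reached 13.7% against 4.36%, through a single sample.

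A further 60 genes of lipid metabolism and adipokine secretion were counted for comparison. Regions reached 39 of them in at least 1 sample (65%) and 21 in all 4 (35.0%), against 51.9% and 20.3% of all protein-coding genes. In the 4 samples 36, 25, 31 and 34 of the 60 were reached. Of the 21755 protein-coding genes 7332, 6368, 8698 and 8736 were reached (33.7%, 29.3%, 40% and 40.2%), a smaller share in each sample. Genes of like length were not taken for these 60. The genes in all 4 samples included Cidea, Fitm2, Elovl3, Elovl7, Fads1, Fads2, Agpat3, Gpat3, Lpin2, Mogat1, Acsl6, Gpihbp1, Angptl4, Vldlr, Lipg, Ces1d, Me3, Sfrp5, C1qtnf3 and C1qtnf6. Mid1ip1 and Pnpla3 had a region in both mature adipocyte samples and in neither of pre-adipocytes, a pattern of 4.73% of all protein-coding genes, and Slc25a1 showed the opposite, a pattern of 0.896%. The widest cover was at Ces1d, which encodes a triglyceride hydrolase, at 95.8%, 50.6%, 93.4% and 96.5%. Gpihbp1, the anchor of Lpl on capillaries, was covered to 72.0%, 39.3%, 87.7% and 42.4%, and Angptl4, an inhibitor of Lpl, to 82.0%, 38.6%, 57.1% and 44.9%.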

How the data were processed

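ChIP-seq of macroH2A1.2-GFP was analysed in 2 pre-adipocyte and 2 mature adipocyte samples. The authors aligned reads to mm10 with Bowtie 1.1.2 (up to 2 mismatches, unique hits), removed duplicates with Picard and called regions per sample with SICER 1.1 against the library without antibody. The deposited tables hold raw counts of ChIP and control reads per region. The deposited p-value and FDR are those of SICER, and the deposited fold, a ratio, divides ChIP by control reads after scaling to library size. The paper gives an FDR of 1%, whereas the largest deposited FDR was 0.001. The methods name adipose tissue for the immunoprecipitation, whereas the labels name 3T3-L1 cells.

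Genes came from GENCODE M21. Library size relative to the control was recovered from the scaling of the fold. ChIP counts of merged regions called in all 4 samples were tested with edgeR 4.0.16 (quasi-likelihood, TMM, offset of log called length, R 4.3.3), which was first tested on simulated data; other values were computed with Python 3.11.15 and pandas 2.3.3. Single values were compared over samples by exact permutation tests. Depth is given as counts per region, and limits on it cover counting error only. Samples were not paired, since the study's methods use no pairing. Same-numbered replicates did not deviate together (r = 0.00775 over regions). Alternatives covered the FDR (1e-05), fold (2), window (body alone or 50 kb), overlap (1000 bp), equal numbers of regions, common regions, normalization, DESeq2 1.42.0, a minimum of 50 reads, a replicate block and leaving out each replicate.

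The 40 genes, their roles and the 60 further genes were chosen with earlier results of these data known. Named singly were genes with a region in all 4 samples or in both replicates of a single condition, and the 5 others with the widest cover. Genes without a region in a sample were counted at 0. The control library has no region table of its own and was used only through the control reads.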

Additional observations from a re-analysis of the deposited data

How the results depend on the processing

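Limits. The number and length of called regions differed between samples, and the library of pre-adipocytes replicate 2 held fewer reads. A gene without a region was not detectably enriched at this depth, which does not show absence. With 2 samples a condition no permutation p under 0.333 was possible, so these p-values do not speak to stability.

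The number of listed genes with a region in at least 1 sample was 26. It was 14 at an enrichment of at least 2-fold and 15 with regions common to both replicates. In the gene body alone it was 15 (37.5%, against 30.1% of all protein-coding genes). The TSS count of 9 became 1 at 2-fold. The 39 of 60 further lipid genes became 20 at 2-fold and 21 in the body alone. Shares of all protein-coding genes were not computed at 2-fold or with common regions. Whether the listed genes stayed above the background there was not tested. With equal numbers of regions the difference in genes per sample was 0 in place of 6, and the density difference of 0.51 reversed to -0.074 per library size. Leaving out each replicate gave ranges of 2 to 10 genes, 1.42 to 6.31 points of cover, 0.12 to 0.90 in log2 density, 24 to 26 genes with a region, 5 to 9 with the TSS in one, 36 to 39 further lipid genes, and 0 to 1 region differing by edgeR, the 1 being Lep without pre-adipocytes replicate 2. The replicate block left 0 of 14 regions called. Over all 12857 regions it called 27 in place of 11, and the samples share only a number. Their r was 0.00775 for same numbers, which fixes that for different numbers at -0.00775. Requiring 50 reads in every sample also called 27 overall; DESeq2 called 6, no length offset 3, an FDR of 1e-05 gave 1 and library sizes relative to the control 0, with 69 regions at an unadjusted p under 0.05. Without pre-adipocytes replicate 1 there were 178, without replicate 2 there were 230, and without mature adipocytes replicates 1 and 2 there were 7 and 1; the cause was not tested.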

Other observations

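The promoter stretches of the listed genes held a median of 11 CpG dinucleotides in 300 bases for the 6 matched genes with a region in all 4 samples, 8.5 for 14 genes with a region in 1 to 3 samples and 10 for 11 genes with none, against 7 over all 32851 stretches. Adipoq held 0 and Mgll 32, and both genes had a region in every sample. Among the genes without a region the count ran from 0 at Aqp7 to 35 at Me1.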
